A study of Mus musculus with 8 samples.

Results

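The genes described here encode the non-collagen scaffold of the extracellular matrix: adhesive glycoproteins, matricellular proteins, proteoglycans, basement membrane linkers and elastic fibre components. The list names 45 such genes, matched by symbol or alias to spots on a whole-genome array (Ctgf is now Ccn2, Wisp1 is Ccn4 and Wisp2 is Ccn5). All 45 were found among the 20863 genes measured, and where several spots read a gene, the brightest on average was taken. Whole-lung RNA came from 4 wild-type mice and 4 mice labelled Fra-2 over-expressing (Fra-2 TG), all C57BL/6 and 8 weeks old, with 1 single-colour Agilent array per mouse and no treatment. The labels do not name the promoter of the transgene or the cells in which it acts.

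Fra-2, encoded by Fosl2, is a partner of Jun proteins in the AP-1 transcription factor, and mice that carry extra Fra-2 are known for scarring of the lung and thickening of its vessels. Fibronectin and the matricellular proteins of this list are commonly read as marks of matrix remodelling, because injured tissue raises them around activated fibroblasts. In lung, elastic fibres carry the recoil of the alveolar wall, with an elastin core laid on fibrillin microfibrils and held by fibulins. Small leucine-rich proteoglycans bind collagen fibrils and set their thickness, and nidogens and perlecan tie the laminin and collagen IV sheets of basement membranes together.

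Levels are log2 normalised intensity, and differences are transgenic minus wild type on the log2 scale with the standard error (SE) of limma's moderated test. Arrays correlated with the others of their group at a mean of 0.982 to 0.985 across genes, except wild-type mouse 4 (0.976) and transgenic mouse 4 (0.979), which stood apart. Of the lung epithelial markers Sftpc, Sftpb, Sftpa1, Ager, Hopx and Scgb1a1, all 6 were far above the floor for dim signals, which was the median of all spots, 4.74. Fosl2 itself was read by 2 spots that disagreed. The brighter had levels of 10.12 to 11.01 in wild-type and 9.38 to 10.62 in transgenic mice, and the dimmer had 3.44 to 5.58 in wild-type and 6.35 to 7.85 in transgenic mice, so the genotype labels were not settled by a single spot.

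In the transgenic lungs the matrix genes as a group lay close to their wild-type levels. None of the 45 passed the test over all genes (limma, Benjamini-Hochberg adjusted p under 0.05), where 0.216% of all genes did (0.125% higher and 0.0911% lower), and the smallest adjusted p among them was 0.502. At an unadjusted limma p under 0.05 there were 2 of 45, Thbs4 on the higher and Fbln1 on the lower side, against 9.15% of all genes (5.33% higher and 3.82% lower). Positive differences were seen in 22 of 45 (52.4% of all genes) and negative in 23 (47.6%), and the median difference was -0.01 against 0.01 over all genes. The sign itself was not stable: it turned in at least 1 alternative, such as leaving out a mouse, for 25 of the 45. Only Thbs4 differed by at least 2-fold, where 2.24% of all genes did. The 4 transgenic values lay wholly above the 4 wild-type values in 2 genes, Thbs4 and Nid1, and wholly below them in 0; over all genes 6.53% had groups that did not overlap, 3.99% higher and 2.54% lower. In whole-lung RNA, fewer cells of a type and less RNA per cell cannot be told apart.

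How firmly these data bound a change differs by gene. For 4 members, Thbs4, Tnc, Fbn2 and Thbs2, the mean over all mice lay under the floor, and for Sparc the spot was saturated. Among the other 40, differences ran from -0.74 (Thbs1) to 0.54 (Wisp2). The 95% interval of the difference lay inside a 2-fold change either way in 33 of these 40 and inside a 1.5-fold change in 14. The 7 whose interval reached past 2-fold were Fn1, Thbs1, Wisp1, Wisp2, Lum, Hspg2 and Npnt. All 12 elastic fibre genes above the floor lay inside 2-fold, as did 7 of 8 proteoglycans, 8 of 11 matricellular genes, 3 of 5 basement membrane genes and 3 of 4 adhesive glycoproteins.

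**Figure D1:**
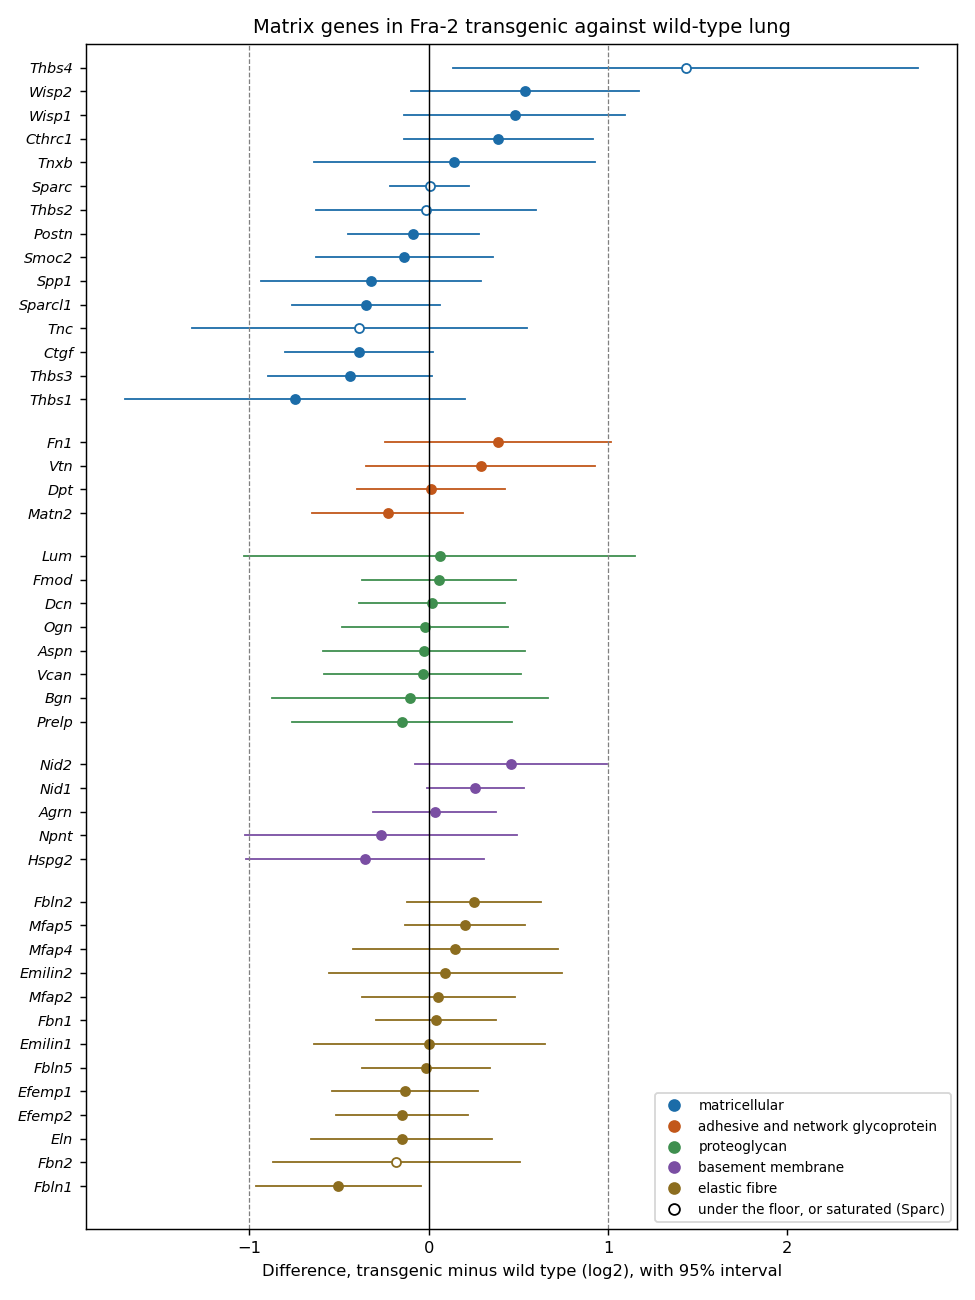
Difference between transgenic and wild-type lung for each of the 45 matrix genes (x axis, log2, transgenic minus wild type), grouped by role, with the 95% interval of limma's moderated test from 4 mice per group. Dashed lines mark a 2-fold change, and open symbols are the 4 genes under the floor and the saturated Sparc spot. Thbs4 is the only point past 2-fold, and the intervals of Thbs4 and Fbln1 are the only ones that leave out 0.

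Thrombospondins are calcium-binding glycoproteins of the cell surface and matrix, and none of the 4 passed the test. Thbs4, a thrombospondin of tendon, heart and vessel wall, read 3.72, 4.19, 3.59 and 4.48 in wild-type mice 1 to 4, against 4.65, 4.79, 5.01 and 7.27 in transgenic mice 1 to 4. All wild-type values and 1 transgenic value were under the floor, and transgenic mouse 4 stood far above the rest. The transgenic mean lay 1.62-fold above the floor, and 1.06-fold above it without transgenic mouse 4. These folds leave out the spread between mice and set no minimum for a rise over wild type. The fitted difference was 1.43 (SE 0.56, limma adjusted p = 0.502), and 0.82 without transgenic mouse 4. The exact permutation p was 0.0286, two-sided, the lowest this design can give. Every gene whose groups do not overlap has this p, so it adds nothing to that separation.

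Thbs1, which binds CD47 and can activate latent TGF-beta, read 10.71, 10.72, 10.44 and 11.80 in wild-type mice against 9.95, 9.82, 9.68 and 11.24 in transgenic mice. Mice 1 to 3 of the transgenic group lay below every wild-type mouse, but transgenic mouse 4 lay above 3 of the 4 (difference -0.74, SE 0.41, limma adjusted p = 0.642). Dropping that transgenic mouse widened the Thbs1 difference to -1.10, while dropping wild-type mouse 4 narrowed it to -0.45. Over 19 alternatives its unadjusted limma p ran from 0.000947 to 0.273, under 0.05 in 4, and adjusted p from 0.129 to 0.816. Thbs3 was read by 2 spots. The brighter gave 11.75, 12.25, 11.88 and 12.39 in wild-type mice and 11.74, 11.90, 11.61 and 11.26 in transgenic mice (difference -0.44, SE 0.20, limma adjusted p = 0.564). On the dimmer spot the values were 11.46, 11.47, 11.03 and 11.76 in wild-type mice and 11.05, 11.00, 10.75 and 10.46 in transgenic mice. There the groups overlapped only through wild-type mouse 3 (difference -0.62, SE 0.20, limma adjusted p = 0.406 over all named spots). Without both mice numbered 4 the differences were -0.21 on the brighter and -0.39 on the dimmer spot. Thbs2, a thrombospondin of connective tissue, lay between 4.03 and 5.26 in wild-type mice and between 4.33 and 4.91 in transgenic mice, around the floor in each group.

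The CCN family are secreted cysteine-rich proteins that signal through integrins, and none of the 3 on the list passed. Ctgf, a target of TGF-beta and of YAP, read 13.65, 13.24, 13.48 and 13.98 in wild-type mice against 13.12, 13.07, 13.46 and 13.16 in transgenic mice. Transgenic mice 1, 2 and 4 lay below all wild-type mice and transgenic mouse 3 among them (difference -0.39, SE 0.18, 95% interval -0.80 to 0.03, limma adjusted p = 0.575). Wisp2, which lacks the C-terminal domain of its relatives, stood at 9.80, 9.71, 9.61 and 8.84 in wild-type mice and at 9.70, 10.33, 10.46 and 9.63 in transgenic mice (difference 0.54, SE 0.28, limma adjusted p = 0.611). Only transgenic mice 2 and 3 lay above the wild-type range, and wild-type mouse 4 lay well below all others; without it the difference was 0.32. Wisp1, a Wnt-induced member, had 7.21, 6.97, 6.36 and 6.82 in wild-type mice and 6.92, 7.45, 6.99 and 7.92 in transgenic mice (0.48, SE 0.27, limma adjusted p = 0.642), with the groups overlapping. Its dimmer spot gave a difference of 0.38, and without both mice numbered 4 the brighter gave 0.27. Cyr61 (now Ccn1), a further CCN gene, is not on the list and was picked after its values were seen. It read 12.61, 12.08, 11.703 and 12.03 in wild-type mice against 11.701, 11.33, 11.44 and 11.64 in transgenic mice. The groups missed overlap only narrowly, as wild-type mouse 3 and transgenic mouse 1 were almost equal. Over all genes 6.53% had groups that did not overlap. The Cyr61 difference was -0.58 (SE 0.20) and did not pass over all genes (limma adjusted p = 0.435).

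Sparc, a collagen-binding glycoprotein abundant in endothelium and fibroblasts, could not be read on its brightest spot, which stood at 15.98 or above in all 8 mice, at the top of the scanner's scale. The other Sparc spot, looked at after the values were seen, was not saturated. It read 11.60, 11.50, 11.24 and 11.29 in wild-type mice and 11.83, 11.94, 11.92 and 11.98 in transgenic mice. Every transgenic mouse lay above every wild-type mouse, with means of 11.92 ± 0.07 against 11.41 ± 0.17 (SD, n = 4 each), or 1.42-fold; groups without overlap were found for 6.27% of named spots. The difference of 0.51 (SE 0.13, 95% interval 0.22 to 0.80) did not pass over all named spots, of which 0.178% did (limma adjusted p = 0.267). The exact permutation p of 0.0286, two-sided, follows from the lack of overlap alone. The difference ran from 0.45 to 0.57 over 14 alternatives, with unadjusted limma p from 0.000697 to 0.0152 and adjusted p from 0.0972 to 0.551. Sparcl1, the related hevin, was near the top of the scale without reaching it, at 15.62, 15.11, 15.58 and 15.47 in wild-type mice and 15.30, 15.18, 15.21 and 14.70 in transgenic mice (difference -0.35, SE 0.18, limma adjusted p = 0.613). Signals this close to the top can be compressed.

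Among the matricellular genes most often read as marks of fibrosis, group values overlapped. Spp1, the integrin ligand osteopontin made by macrophages and epithelium, had 10.13, 9.54, 9.93 and 8.99 in wild-type mice and 9.64, 9.47, 8.95 and 9.26 in transgenic mice (difference -0.32, SE 0.27, 95% interval -0.93 to 0.29, limma adjusted p = 0.756). Postn, periostin, which binds integrins and collagen, had 11.77, 11.49, 11.44 and 11.79 against 11.63, 11.63, 11.70 and 11.19 (difference -0.09, SE 0.16, 95% interval -0.45 to 0.28, limma adjusted p = 0.901). The sign of Postn turned in 3 of its alternatives, all without a call. Tnc, a tenascin of injured and growing tissue, was under the floor in all 8 mice, at 4.42, 3.28, 4.62 and 3.89 in wild-type and 3.76, 2.65, 3.97 and 4.29 in transgenic mice. No fold is given for it.

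Cthrc1, a secreted protein of activated fibroblasts, lay at 5.39 to 5.75 in wild-type mice, at 5.62 to 5.84 in transgenic mice 1 to 3 and at 6.62 in transgenic mouse 4 (difference 0.39, SE 0.23, limma adjusted p = 0.658). Its wild-type levels were low and close to the floor, and without both mice numbered 4 the difference was 0.12. Tnxb, a tenascin whose loss makes connective tissue lax, read 10.24, 10.03, 9.30 and 9.12 in wild-type mice and 10.14, 10.19, 9.89 and 9.03 in transgenic mice, lowest in mouse 4 of each group (difference 0.14, SE 0.34). Smoc2, a calcium-binding relative of Sparc, lay at 9.60 to 9.61 in wild-type mice 1 to 3, at 10.23 in wild-type mouse 4 and at 9.20 to 9.97 in transgenic mice (difference -0.13, SE 0.21). Of the 15 matricellular genes, 6 had positive and 9 negative differences, with a median of -0.09.

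**Figure D2:**
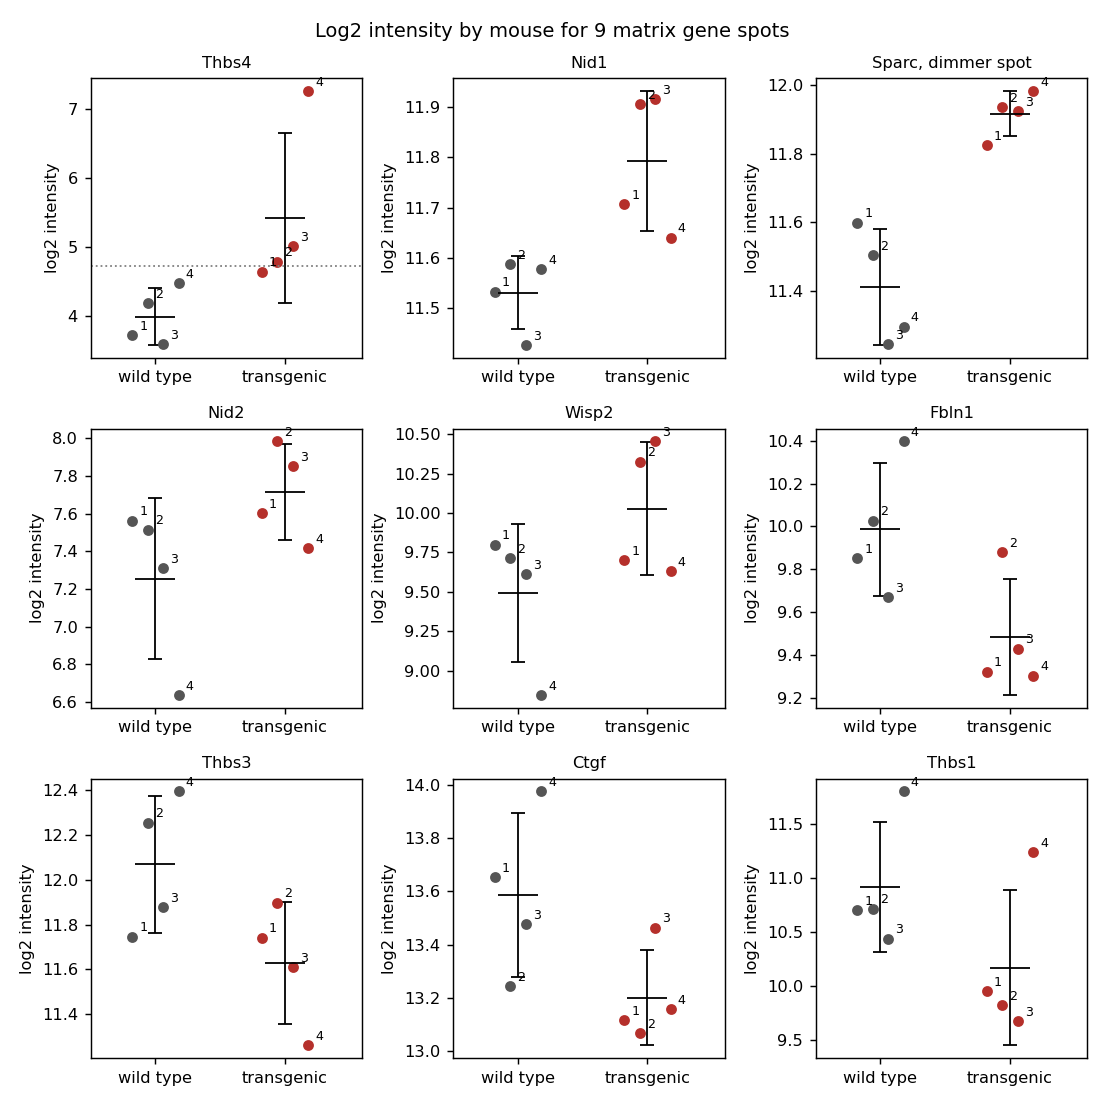
Log2 intensity of 9 spots in each mouse, wild type in grey and transgenic in red, with mouse numbers beside the points and bars for mean and SD (n = 4 each). The dotted line in the Thbs4 panel is the floor at 4.74; the groups do not overlap for Thbs4, Nid1 and the dimmer Sparc spot, and they overlap in the other 6 panels.

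Fn1, the adhesive glycoprotein that organises new matrix, read 13.02, 12.49, 12.94 and 13.71 in wild-type mice against 13.25, 13.48, 13.11 and 13.87 in transgenic mice. Mouse 4 was the highest of each group, and transgenic mice 1 to 3 lay between the wild-type values of mouse 1 and mouse 4 (difference 0.39, SE 0.27, 95% interval -0.24 to 1.02, limma adjusted p = 0.714). Leaving out 1 mouse moved the difference between 0.20 (without wild-type mouse 2) and 0.61 (without wild-type mouse 4; limma adjusted p = 0.449). Matn2, a filament-forming matrilin, had 8.19, 8.46, 8.60 and 8.40 in wild-type mice and 8.66, 8.09, 8.09 and 7.91 in transgenic mice (difference -0.23, SE 0.18, limma adjusted p = 0.748). Transgenic mice 2 to 4 lay below all wild-type mice, and transgenic mouse 1 lay above all of them.

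Dpt, a dermatopontin that binds decorin, and Vtn, a plasma and matrix ligand of integrin alpha-v, were each read by 10 spots per array. The SD between the 10 spots within an array was 0.17 to 0.28 for Dpt and 0.12 to 0.23 for Vtn. Some spots lay below others on every array, and such offsets cancel in a group difference, so this SD is not measurement noise alone. Averaged over its 10 spots, Dpt stood at 9.34, 9.16, 9.79 and 9.22 in wild-type mice and 9.26, 9.29, 9.35 and 9.14 in transgenic mice, or 9.37 ± 0.29 against 9.26 ± 0.09 (SD, n = 4 each). Single Dpt spots gave differences from -0.33 to 0.01, with 4 of 10 positive. Vtn averaged 9.60, 9.29, 9.36 and 8.52 in wild-type mice and 9.64, 9.87, 9.71 and 8.95 in transgenic mice, or 9.19 ± 0.47 against 9.54 ± 0.40. All 10 Vtn spots gave a positive difference, from 0.24 to 0.49, yet mouse 4 was low in each group. The spread between mice in each group was wider than the difference. The Vtn spot used for the test did not pass (difference 0.29, SE 0.28, limma adjusted p = 0.789), and its difference was 0.09 without wild-type mouse 4.

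**Figure D3:**
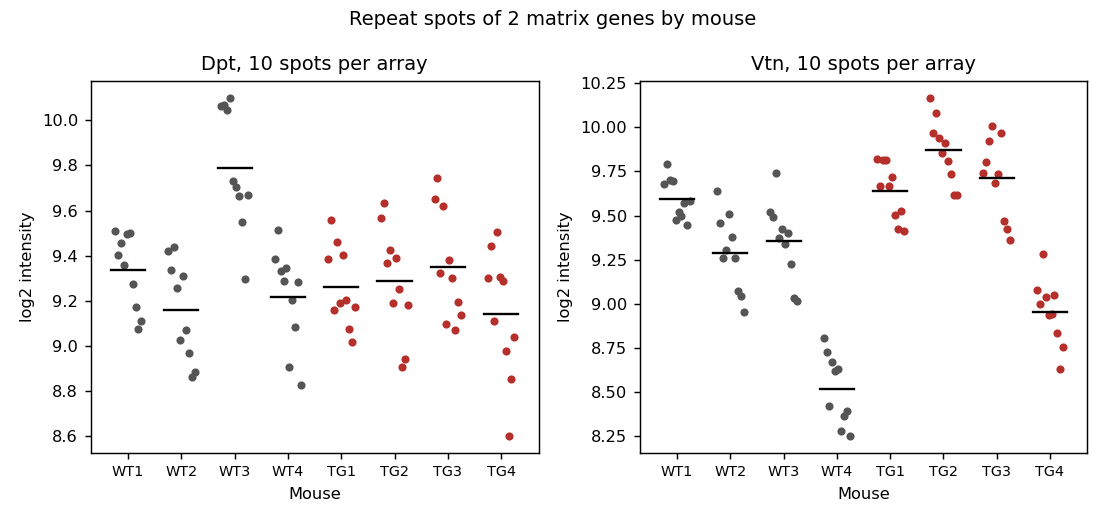
Log2 intensity of the 10 spots of Dpt and the 10 spots of Vtn on each array (points; wild type grey, transgenic red), with the mean of the spots as a line. For Dpt the spots of an array spread as widely as most mice differ, with wild-type mouse 3 high. Part of that spread is an offset between spots that recurs on every array. For Vtn mouse 4 of each group lies below the others.

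Over the 8 proteoglycan genes the median size of the difference was 0.04, against 0.15 over the 40 members above the floor and not saturated. Bgn, the X-linked biglycan that binds collagen and TGF-beta, had 10.06, 9.22, 9.52 and 8.46 in wild-type mice and 9.48, 9.31, 9.35 and 8.71 in transgenic mice (difference -0.10, SE 0.34, limma adjusted p = 0.949). Its wild-type values spread over more than the whole transgenic range, and the sign turned without wild-type mouse 1 (0.15) or transgenic mouse 4 (0.06). Prelp, a proteoglycan that anchors basement membrane to collagen, had 6.19, 5.83, 6.07 and 6.21 in wild-type mice and 5.97, 6.51, 6.06 and 5.17 in transgenic mice (difference -0.15, SE 0.27, limma adjusted p = 0.897), and turned to 0.10 without transgenic mouse 4. Dcn, the decorin that caps collagen fibril growth, had 13.94, 13.46, 13.69 and 13.57 against 13.92, 13.79, 13.27 and 13.76 (difference 0.02, SE 0.18, 95% interval -0.39 to 0.43). Neither group of Dcn values was the higher.

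Lum, the fibril-binding lumican, lay at 8.66 to 9.13 in wild-type mice and at 8.64, 8.82 and 7.94 in transgenic mice 1 to 3, but at 10.45 in transgenic mouse 4. The transgenic group therefore held both its lowest and its highest value (difference 0.06, SE 0.47), and without transgenic mouse 4 the difference was -0.43. Ogn, the mimecan of connective tissue, went the other way in that mouse, at 13.22 against 13.85 to 13.91 in transgenic mice 1 to 3 and 13.39 to 13.99 in wild-type mice (difference -0.02, SE 0.20; 0.14 without that mouse). Fmod, a collagen-binding relative of lumican, ranged from 5.43 to 6.17 over the 8 mice, Aspn, which inhibits TGF-beta, from 7.21 to 8.23, and Vcan, the large hyaluronan-binding proteoglycan, from 5.46 to 6.55. Their differences were 0.06, -0.03 and -0.03.

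Basement membrane genes held the second member without overlap. Nid1, the nidogen that bridges laminin and collagen IV, had 11.53, 11.59, 11.43 and 11.58 in wild-type mice and 11.71, 11.91, 11.92 and 11.64 in transgenic mice, or 11.53 ± 0.07 against 11.79 ± 0.14 (SD, n = 4 each). Each transgenic mouse lay above each wild-type mouse, mouse 4 by a small margin. The difference was 1.20-fold (0.26, SE 0.12, 95% interval -0.01 to 0.53, limma adjusted p = 0.559). The exact permutation p of 0.0286, two-sided, follows from the lack of overlap alone. The 2 dimmer Nid1 spots differed by 0.40 (SE 0.28) and 0.35 (SE 0.24) the same way, with overlapping groups. Over all alternatives the Nid1 difference ran from 0.22 to 0.35. Nid2, the second nidogen, had 7.56, 7.51, 7.31 and 6.64 in wild-type mice and 7.60, 7.99, 7.85 and 7.42 in transgenic mice (0.46, SE 0.23, limma adjusted p = 0.607). Transgenic mice 1 to 3 lay above all wild-type mice, and mouse 4 was the lowest of each group; without wild-type mouse 4 the difference was 0.25.

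Hspg2, the heparan sulfate proteoglycan perlecan, had 11.43, 11.17, 11.66 and 12.53 in wild-type mice and 11.45, 11.53, 11.42 and 10.98 in transgenic mice. Mouse 4 was the highest of the wild-type and the lowest of the transgenic group, and the difference of -0.35 (SE 0.29) did not pass (limma adjusted p = 0.753). Without wild-type mouse 4 it was -0.08, and without both mice numbered 4 it was 0.05. Npnt, nephronectin, the ligand of integrin alpha-8 in alveolar basement membrane, had 9.67, 9.07, 9.84 and 8.99 against 9.14, 9.44, 9.66 and 8.28 (difference -0.26, SE 0.33), with a second spot at -0.27. Transgenic mouse 4 carried the difference on the first spot, which was 0.02 without it. Agrn, agrin, ranged from 13.21 to 13.69 over the 8 mice, with a difference of 0.03 (SE 0.15).

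Elastic fibre genes were within a 2-fold change in every gene above the floor. Eln, the elastin core protein, had 9.78, 9.94, 9.61 and 9.08 in wild-type mice and 9.11, 9.66, 9.68 and 9.36 in transgenic mice (difference -0.15, SE 0.22, 95% interval -0.65 to 0.35, limma adjusted p = 0.870). Fbln1, a fibulin that binds elastin and fibronectin, had 9.85, 10.03, 9.67 and 10.40 in wild-type mice and 9.32, 9.88, 9.43 and 9.30 in transgenic mice. Transgenic mice 1, 3 and 4 lay below all wild-type mice, while mouse 2 lay among them (difference -0.50, SE 0.20, 95% interval -0.96 to -0.04, limma adjusted p = 0.505; exact permutation p = 0.0857, two-sided). The dimmer Fbln1 spot gave -0.28 (SE 0.19), and leaving out both mice numbered 4 gave -0.31. Fbln2, which binds fibrillin and perlecan, had 9.03, 8.89, 9.02 and 9.52 in wild-type mice and 9.16, 9.45, 9.39 and 9.49 in transgenic mice (difference 0.25, SE 0.16, limma adjusted p = 0.685). Only wild-type mouse 4 kept its groups from separating, and without that mouse the difference was 0.39 (adjusted p = 0.373).

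On the spots used for the test, the other fibulins lay closer to 0. Fbln5, needed for elastic fibre assembly, differed by -0.01 (SE 0.15), Efemp1 by -0.13 (SE 0.18) and Efemp2, which brings lysyl oxidase to tropoelastin, by -0.15 (SE 0.16). The dimmer Fbln5 spot gave 0.33 (SE 0.18), with means near the floor at 4.60 in wild-type and 4.93 in transgenic mice. Fbn1, the main microfibril protein, ranged from 9.88 to 10.43 over the 8 mice with a difference of 0.04 (SE 0.15), while Fbn2, the fibrillin of developing tissue, lay at 3.71 to 5.03, around the floor. The microfibril-associated Mfap2, Mfap4 and Mfap5 differed by 0.05, 0.15 and 0.20. Emilin1, which sits at the elastin and microfibril interface, had 6.92, 6.98, 6.51 and 5.66 in wild-type mice against 6.49, 6.66, 6.44 and 6.50 in transgenic mice (difference 0.00, SE 0.28), and Emilin2 differed by 0.09 (SE 0.28). Of the 13 elastic fibre genes, 7 had positive and 6 negative differences.

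Because Fra-2 acts through AP-1 sites, the 250 bases before annotated starts were searched for the AP-1 motif TGANTCA, which reads the same on each strand. RefSeq promoter windows (GRCm38.p6) matched 29 of the 45 genes, with 40 windows; the others were Nid2, Dcn, Mfap5, Fn1, Smoc2, Eln, Sparcl1, Matn2, Lum, Wisp1, Wisp2, Ctgf, Cthrc1, Thbs1, Mfap4 and Fbn2. The motif was in 2 of these 40 (5.0%) against 6.75% of all 32851 windows. The windows of the 3 genes with a spot whose groups did not overlap, and the 2 that hold the motif, are printed below. They are in lower case, 5′ to 3′ along the gene, with the motif in capitals. They are, in order, chr13:13437352-13437601 (plus strand), chr11:55420081-55420330 (minus), chr13:92794819-92795068 (minus), chr11:28852955-28853204 (plus) and chr17:34670285-34670534 (plus).
Nid1: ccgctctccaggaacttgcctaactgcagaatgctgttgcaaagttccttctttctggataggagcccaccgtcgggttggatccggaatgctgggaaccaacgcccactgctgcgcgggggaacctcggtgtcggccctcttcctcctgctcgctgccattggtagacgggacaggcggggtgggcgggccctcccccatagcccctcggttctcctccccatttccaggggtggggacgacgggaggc
Sparc: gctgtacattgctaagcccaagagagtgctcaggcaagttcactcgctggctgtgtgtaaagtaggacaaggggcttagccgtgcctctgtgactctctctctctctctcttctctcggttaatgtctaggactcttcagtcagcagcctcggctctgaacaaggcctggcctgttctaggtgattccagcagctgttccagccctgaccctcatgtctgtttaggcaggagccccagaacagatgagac
Thbs4: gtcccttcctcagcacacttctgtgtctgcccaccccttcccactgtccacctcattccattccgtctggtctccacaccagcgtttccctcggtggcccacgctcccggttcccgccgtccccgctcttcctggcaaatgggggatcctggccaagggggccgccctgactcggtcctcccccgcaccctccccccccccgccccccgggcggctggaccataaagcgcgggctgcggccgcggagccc
Efemp1: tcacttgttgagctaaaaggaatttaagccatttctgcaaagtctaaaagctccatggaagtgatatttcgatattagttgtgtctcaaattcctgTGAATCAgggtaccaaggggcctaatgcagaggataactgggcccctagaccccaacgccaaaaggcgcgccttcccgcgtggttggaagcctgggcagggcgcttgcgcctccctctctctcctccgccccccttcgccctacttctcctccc
Tnxb: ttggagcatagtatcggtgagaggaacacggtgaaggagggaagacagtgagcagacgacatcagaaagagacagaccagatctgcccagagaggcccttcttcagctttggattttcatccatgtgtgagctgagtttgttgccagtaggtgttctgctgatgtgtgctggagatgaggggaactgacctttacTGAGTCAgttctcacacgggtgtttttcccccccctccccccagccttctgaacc
Nid1, Sparc and Thbs4 had no match in these windows, which says only that the letters are not there. In Efemp1 the motif's last base lay 148 bases before an annotated start and in Tnxb 49 bases before one. Both starts lay inside the listed span of the gene, which begins at 28853154 for Efemp1 and at 34660453 for Tnxb. Neither gene passed the test (differences -0.13 for Efemp1 and 0.14 for Tnxb), and each sign turned without wild-type mouse 4 (0.03 and -0.04).

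Across the list, the mice numbered 4 departed most often from their own groups. Mouse 4 was the highest or the lowest of its group in the same direction in both groups for 17 of 45 members (37.8%), 9 high and 8 low, against 26.0% of all genes. For the other mouse numbers the share was 6.67% to 8.89% of members and at most 11.0% of all genes. The 9 high ones were Fn1, Thbs1, Thbs2, Thbs4, Lum, Aspn, Vcan, Fbln2 and Efemp1, and the 8 low ones were Tnxb, Wisp2, Bgn, Ogn, Mfap2, Nid2, Npnt and Vtn. Transgenic mouse 4 was the lowest of all 8 mice in 14 members and the highest in 7, and wild-type mouse 4 was the highest in 12 and the lowest in 9. What sets these 2 mice apart is not given in the labels.

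**Figure D4:**
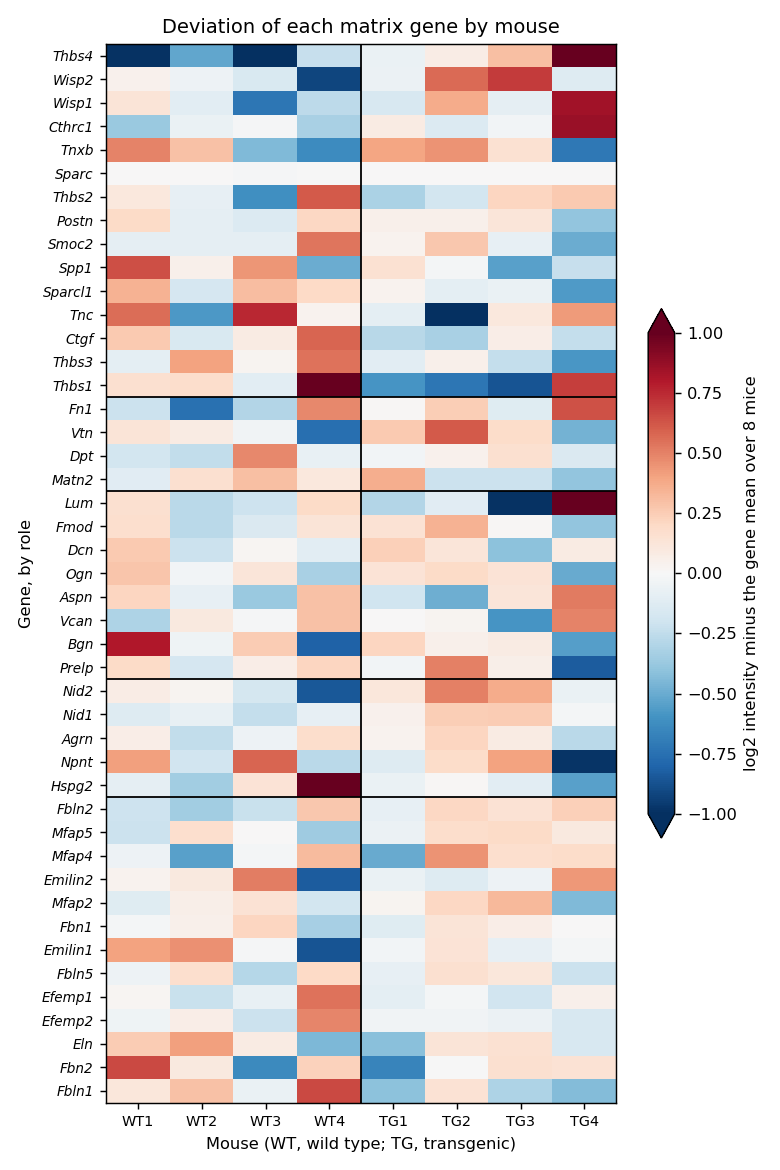
Deviation of each of the 45 genes from its mean over 8 mice (colour, log2; red above, blue below, limits at 1), with genes as rows by role and mice as columns. The columns of wild-type mouse 4 and transgenic mouse 4 hold many of the strongest colours, red for Thbs1 and Fn1 and blue for Bgn, Vtn and Npnt in each, while the Sparc row is nearly white, its spot being saturated.

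Markers of the cells that a whole lung holds were read beside the matrix genes. Smooth muscle markers were lower in transgenic mice in 8 of 8 genes (median -0.32, 0 past the threshold). Their summed level on the log2 scale was 15.19 to 15.56 in wild-type and 14.85 to 15.17 in transgenic mice. The groups missed overlap only narrowly, between wild-type mouse 2 (15.19) and transgenic mouse 2 (15.17). Among all genes 6.53% had groups that did not overlap. Of 8 fibroblast markers 5 were lower (median -0.24, summed level 15.32 to 15.55 against 15.38 to 15.59), and 0 passed the threshold. The list was split. The 3 collagen genes were higher, Col1a1 by 0.52, Col1a2 by 0.16 and Col3a1 by 0.18, and the other 5 were lower, with Pdgfra at -0.39. For Col1a1 the groups did not overlap (limma adjusted p = 0.432). Endothelial markers were higher in 5 of 6 (median 0.29, summed level 15.89 to 16.03 against 16.01 to 16.27). The part of these cell types in the differences of the matrix genes was not tested. Mesothelial markers had a median of 0.31, with 4 of 6 higher (14.18 to 14.35 against 14.19 to 14.54), and macrophage markers a median of 0.23, with 5 of 6 higher (13.71 to 14.32 against 13.89 to 14.07) and Marco lower past the threshold. Heart muscle markers, RNA that heart or pulmonary vein tissue can bring, were lower in 6 of 6 (median -0.34) and varied widely, with summed levels of 14.98 to 16.28 in wild-type mice, 15.40 to 15.75 in transgenic mice 1 to 3 and 13.47 in transgenic mouse 4. That count rests on this mouse: without it 5 of the 6 were higher (median 0.21). Without wild-type mouse 4, 3 of 6 macrophage markers were higher, and without transgenic mouse 4 the fibroblast median was -0.06. Cartilage markers were under the floor in 9 of 10 genes.

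Outside the 45, a further 84 measured genes of or near the matrix were read in the same fit. The list takes in 15 genes of cell surface proteoglycans and hyaluronan, which are outside the members' roles. Of these 15, 5 had an unadjusted limma p under 0.05. In this list 1 passed over all genes (0.216% of all genes did), 16 had an unadjusted limma p under 0.05, 8 on each side (19.0%, against 9.15% of all genes), and 9 had groups that did not overlap, 4 higher and 5 lower (6.53% of all genes did not). The median difference was -0.03. Esm1, endocan, a proteoglycan secreted by endothelial tip cells, was the gene that passed and fell 4.64-fold (-2.21, SE 0.29, limma adjusted p = 0.0303), and it no longer passed once a single mouse was dropped, unless that was transgenic mouse 2.

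The next 3 by p did not pass. Gpc1, the glypican-1 heparan sulfate proteoglycan, had 10.69, 10.05, 10.35 and 10.46 in wild-type mice and 9.50, 9.93, 9.47 and 9.36 in transgenic mice (difference -0.82, SE 0.18, limma adjusted p = 0.193). Mmrn2, an endothelial matrix protein of the emilin family, had 11.85, 12.36, 12.29 and 11.72 against 12.94, 13.07, 13.35 and 12.59 (difference 0.94, SE 0.21, limma adjusted p = 0.202). Lyve1, a hyaluronan receptor of lymphatic endothelium, had 12.30, 12.59, 12.62 and 12.23 against 12.86, 12.99, 13.00 and 13.00 (difference 0.53, SE 0.13, limma adjusted p = 0.246). In all 3 the groups did not overlap. Also without overlap, and named after their values were seen, were the basement membrane genes Hmcn1 (0.58, SE 0.15) and Tinagl1 (0.54, SE 0.16), higher in transgenic mice, and Spock2 (-0.52, SE 0.13) and Slit3 (-0.49, SE 0.19), lower. Latent TGF-beta binding proteins, which fasten TGF-beta to microfibrils, differed by -0.39 (Ltbp1), -0.03 (Ltbp2), -0.14 (Ltbp3) and -0.23 (Ltbp4), and none passed.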

How the data were processed

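Lung RNA of 8 mice was labelled with Cy5 and read on single-colour Agilent arrays, per the labels' protocols. The authors deposited linear intensity values for 62976 spots, already brought to 1 distribution across arrays; the background step is not given in the sources used here. Software listed in the submitters' processing notes was R 2.15.1 with limma 3.14.4. Platform symbols named 31465 spots, 29050 of which matched RefSeq (GRCm38.p6) by accession, which replaced 2933 symbols, giving 20863 genes. The log2 of the brightest spot per gene was fitted over all genes with limma 3.58.1 (lmFit, eBayes, group only) in R 4.3.3, with Benjamini-Hochberg adjustment and a threshold of 0.05. Figures used matplotlib 3.10.9. The floor, chosen after values were seen, is the median of all spots; the deposited values carry no saturation or background flags. Promoter windows came from RefSeq (GRCm38.p6).

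The members, lists and tests were chosen with earlier results of these data known. Values by mouse are given for members without overlap between groups, the 2 smallest p per role, and Fn1, Tnc, Postn, Spp1, Ctgf and Eln; other members shown in full were picked later. Of related genes, those past the threshold and the 4 with the smallest p are named. The fit was tested on simulated data with known shifts, 50 genes for each. It recovered 8% of log2 shifts of 0.5, 52% of shifts of 1, 92% of shifts of 2 and 100% of shifts of 4. A difference near 0.5 would therefore seldom pass, and not passing does not show that a gene is unchanged. Alternatives covered scaling, offsets, filters, spot choice, variance models, the mouse number as a block, and each mouse dropped in turn. The number of arrays limits the precision.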

Additional observations from a re-analysis of the deposited data

Results flagged for a closer look

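In a group of 4 mice, a value was singled out when its gap to the nearest other mouse took up most of the group's range (Dixon's test); chance singles out about 1 in 20 groups. Among the 90 member groups 5 were singled out, 4 of them by transgenic mouse 4. That mouse was low for Postn (11.19, next 11.63) and Ogn (13.22, next 13.85) and high for Thbs4 (7.27, next 5.01) and Emilin2 (10.73, next 10.24). Wild-type mouse 4 was high for Smoc2 (10.23, next 9.61). Over all 142 groups looked at, 10 were singled out. Beside the members, these were wild-type mouse 4 for Esm1 (11.02, next 11.51), transgenic mouse 1 for Lyve1 (12.86, next 12.99) and for Comp (5.24, next 4.56), and transgenic mouse 4 for the summed heart muscle markers (13.47, next 15.40) and the summed lung epithelial markers (18.08, next 18.24). Their causes were not tested.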

How the results depend on the processing

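The count of 0 matrix members past the threshold held under all 19 alternatives, with a smallest adjusted p from 0.129 (Thbs1) to 0.659. No member was called under any of them, and 25 of the 45 changed the sign of an uncalled difference in at least 1. Sign changes numbered 12 without wild-type mouse 4, 10 without transgenic mouse 4, 13 without both, 11 with array weights, 1 to 7 with another mouse left out, 0 to 3 under the other settings. Over all genes the count of 45 became 80 and 88 with offsets of 16 and 32, 71 with dim genes left out, 118 with a trended robust variance, 100 with array weights, 76 at a threshold of 0.10, 17 without both mice numbered 4 (added after the data were seen) and 17 to 38 with 1 mouse left out. For the related genes the count of 1 became 2 with the trended robust variance, 0 without both mice numbered 4 and 0 to 1 with 1 mouse left out. With the replicate block the counts were 5 over all genes, 0 for members and 0 for related genes. Deviations of same-numbered mice correlated weakly across genes (-0.01 to 0.05). The closest transgenic mouse had the same number for wild-type mice 1, 3 and 4, and was mouse 4 for wild-type mouse 2. Whether the numbers mark pairs cannot be told from these values, nor whether a call lost under the block is a weaker effect. The arrays already shared 1 distribution, so scaling again tests little. Only 14 of the 40 members read between floor and saturation have an interval inside a 1.5-fold change. Saturation limits Sparc, and signal near background limits Thbs4, Thbs2, Tnc and Fbn2.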
